A study of Mus musculus with 12 samples.

Results

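The natriuretic peptide system comprised 8 genes here, taken by name: the ligand genes Nppa, Nppb and Nppc, the receptor genes Npr1, Npr2 and Npr3, and the protease genes Corin and Furin. All 8 were found among the 20660 genes that the probes could be matched to, each with 1 probe. They were measured in total RNA of the heart apex of male C57BL/6J mice at 15 weeks, on 12 single-colour Agilent arrays with 3 arrays in each of 4 Nkx2-5 knock-in lines. Nkx2-5 encodes a cardiac homeodomain transcription factor. The delta/+ line carries a deletion of Nkx2-5. The I183P/+ and I183M/+ lines carry a proline or a methionine in place of an isoleucine of the protein, and the control/+ line has a knock-in allele in which the isoleucine is retained. Every label thus names an engineered allele beside a + allele, the controls included. The labels name no promoter or Cre for these alleles. They also do not say whether the 3 samples of a line were separate animals, so p-values here measure the spread between these samples.

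Atrial natriuretic peptide (Nppa) and B-type natriuretic peptide (Nppb) are hormones of heart muscle that promote salt excretion and vessel relaxation. Both genes are active in the embryonic ventricle, Nppa is later most abundant in the atria, and both are widely read as markers of ventricular load. The peptides are made as precursors that proteases cleave, and they act through receptors that make cyclic GMP in the target cell, while a clearance receptor removes them. Nkx2-5 together with GATA and T-box factors is known to act on the Nppa promoter.

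The promoters of both cardiac peptide genes are shown because Nppa carries letters of the Nkx2-5 binding motif and Nppb does not. Both are the 250 bases before the annotated start in RefSeq (GRCm38.p6), on the + strand of chromosome 4. They lie at chr4:148000472-148000721 for Nppa and at chr4:147985650-147985899 for Nppb. Capitals mark matches on either strand to the NK2 core AAGTG, the extended NK2 motif TNAAGTG (which contains the core), the GATA motif GATAA, the T-box motif AGGTGTGA and the TATA box TATAAA.
Nppa: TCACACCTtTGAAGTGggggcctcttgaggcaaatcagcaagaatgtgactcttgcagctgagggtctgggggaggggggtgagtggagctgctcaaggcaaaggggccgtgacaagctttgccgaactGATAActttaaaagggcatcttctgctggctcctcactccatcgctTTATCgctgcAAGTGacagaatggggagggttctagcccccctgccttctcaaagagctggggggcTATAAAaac
Nppb: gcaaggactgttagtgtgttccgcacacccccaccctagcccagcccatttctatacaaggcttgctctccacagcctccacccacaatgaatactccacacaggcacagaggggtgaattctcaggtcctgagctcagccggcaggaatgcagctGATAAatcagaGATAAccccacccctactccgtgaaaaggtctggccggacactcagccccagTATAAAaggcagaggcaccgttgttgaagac

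The Nppa promoter opens with a T-box match at bases -250 to -243 and an extended NK2 match at bases -241 to -235, counted from the annotated start. A further NK2 core match lies at bases -65 to -61, and GATA matches lie at bases -121 to -117 and -75 to -71. The TATA box of Nppa lies at bases -9 to -4. Nppb holds GATA matches at bases -94 to -90 and -83 to -79 and a TATA box at bases -31 to -26. The TATA boxes of Nppa and Nppb thus lie at unlike distances from the annotated starts. Over all 32851 promoters of this length, 40.71% held the NK2 core, 10.06% the extended NK2 motif, 22.58% the GATA motif, 1.12% the T-box motif and 12.37% the TATA box. All 8 genes had a promoter entry, and 6 of the 8 held no NK2 core match. The exceptions were Nppa and 1 of the 2 Furin promoters. Nppa and Nppb are direct neighbours on the chromosome, in the order Nppb then Nppa. These matches describe letters only.

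Levels are given as the log2 of the background-corrected intensity relative to each array's 75th percentile. Between 51.2% and 75.2% of spots were well above background on 11 arrays. Control replicate 1 stood apart with 99.1%, and its median intensity was 602, against 34.8 to 92.5 on the other arrays. Delta replicate 2 (75.2%, median 82.2) and I183M replicate 1 (72.8%, median 92.5) also lay above the remaining 9 arrays, which had 51.2% to 60.5% and medians of 34.8 to 45.1. On control replicate 1 the level of Nppa was lower than the mean of the other 2 control arrays by 1.62, and the level of Npr1 was higher by 2.00. Values on a normexp and quantile scale, on which each array has the same distribution, are therefore given beside the first scale, and results are given with and without control replicate 1. Slide 1 held all control and I183M arrays and I183P replicates 1 and 2, and slide 2 held all delta arrays and I183P replicate 3. Slide therefore cannot be told apart from line in a comparison of delta with control or with I183M, other than through the I183P arrays. Nkx2-5 itself lay between 12.78 and 12.90 on the delta arrays on the normexp and quantile scale, against 13.52 to 13.83 on all other arrays. Its difference between delta and control was -0.72 on that scale (limma, adjusted p = 0.0353) and -0.22 on the 75th percentile scale (adjusted p = 0.866).

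Nppa, the gene of atrial natriuretic peptide, read lower on the I183M arrays than on control replicates 2 and 3, and its I183P mean lay between the means of these lines. On the 75th percentile scale its level was 7.17, 5.76 and 6.50 on the delta arrays and 5.80, 5.24 and 5.17 on the I183P arrays. It was 5.33, 3.99 and 4.27 on the I183M arrays, against 4.99, 6.68 and 6.54 on the control arrays. All delta arrays lay above all I183M arrays, while the control range overlapped that of delta and, through its replicate 1, those of I183P and I183M. Control replicate 1 read 15.50 beside 15.81 and 15.62 on the normexp and quantile scale, where the 3 control arrays lay above all I183P and all I183M arrays. The Nppa probe was spotted 10 times on each array, and the SD over these spots was 0.02 to 0.11, far below the spread between arrays of a line.

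The mean level of Nppa was 6.47 ± 0.71 in delta, 5.40 ± 0.35 in I183P, 4.53 ± 0.71 in I183M and 6.07 ± 0.94 in control (SD, n = 3 each). Ordered from high to low, the lines ran delta, control, I183P, I183M, and each neighbouring pair in this order had overlapping arrays. I183M differed from control by -1.54 (SE 0.55, 95% interval -2.76 to -0.32), which is 2.91-fold lower, with an adjusted p of 0.879 in limma. The normexp and quantile scale gave -1.99, or 3.96-fold lower, with an unadjusted p of 0.000682 and an adjusted p of 0.818. Without control replicate 1 the difference on the first scale was -2.08. I183P differed from control by -0.67 (interval -1.89 to 0.55) on the first scale and by -1.10 (interval -2.01 to -0.19) on the second, and within slide 1 by -0.55 on the first. On the first scale this difference was -1.21 without control replicate 1, -0.36 without control replicate 2 and -0.43 without control replicate 3.

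For delta against control the Nppa difference was 0.40 (interval -0.82 to 1.62) and -0.10 (interval -1.01 to 0.81) on the 2 scales. It turned negative, at -0.14, without control replicate 1. Delta exceeded I183M by 1.94 (SE 0.55, interval 0.72 to 3.16), which is 3.85-fold, with an adjusted p of 0.975, and by 1.88 on the second scale with an adjusted p of 0.300. I183P minus I183M was 0.87 (interval -0.35 to 2.09) and delta minus I183P was 1.07 (interval -0.15 to 2.29). No Nppa difference passed limma's threshold of an adjusted p under 0.05 on either scale.

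**Figure D1:**
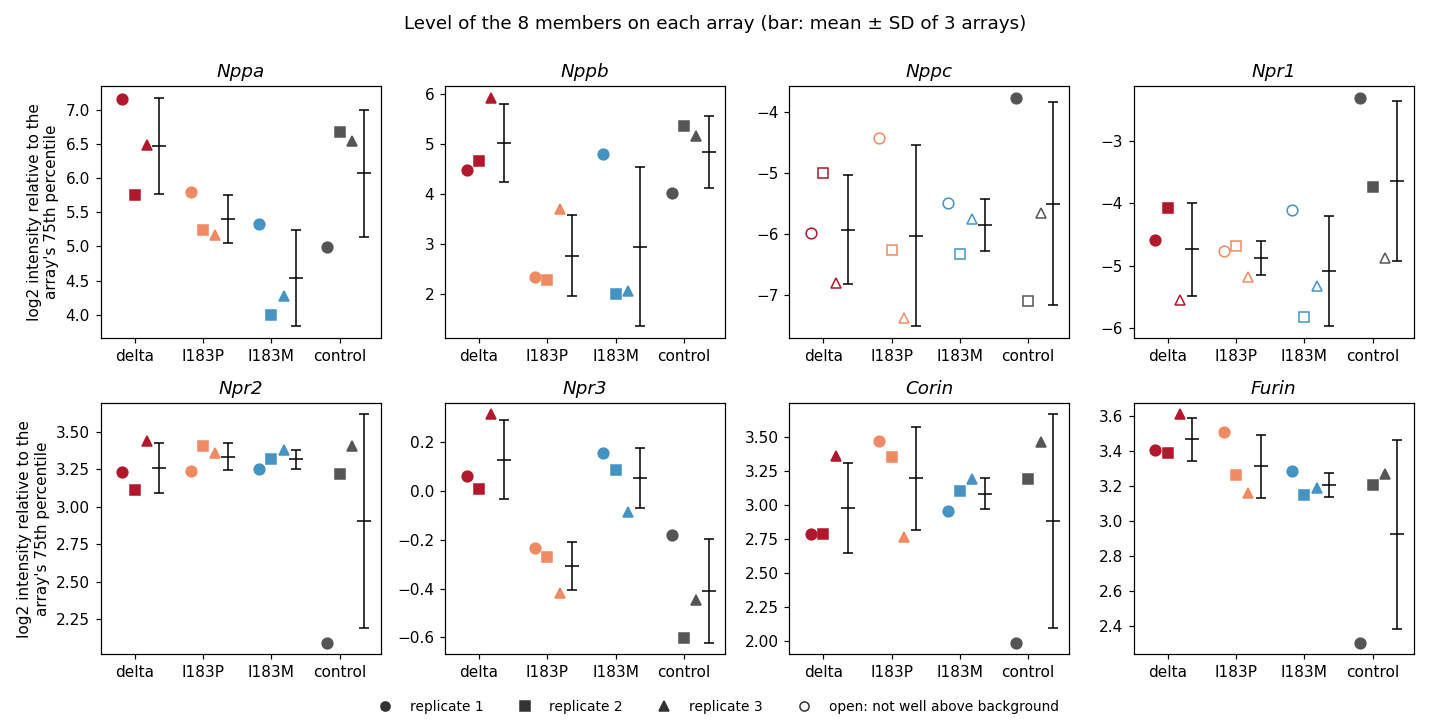
Level of each of the 8 genes on each array, as log2 intensity relative to the array's 75th percentile (vertical axes differ between panels), by line. Symbols stand for replicates, open symbols for probes not well above background, and bars for mean ± SD of 3 arrays. Nppa lies between 3.99 and 5.33 on the I183M arrays and between 5.76 and 7.17 on the delta arrays, and control replicate 1 lies below the other control arrays for Nppa, Nppb, Npr2, Corin and Furin and above them for Nppc, Npr1 and Npr3.

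Nppb, the gene of B-type natriuretic peptide, showed the largest difference between arrays of the 8 genes among those well above background throughout. Its level was 4.48, 4.66 and 5.93 on the delta arrays and 2.33, 2.27 and 3.70 on the I183P arrays. It was 4.80, 1.99 and 2.05 on the I183M arrays, against 4.01, 5.36 and 5.17 on the control arrays. All 3 I183P arrays lay below all control arrays. In I183M, replicates 2 and 3 lay far below the control arrays, while replicate 1 lay within the control range.

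The mean level of Nppb was 5.02 ± 0.79 in delta, 2.76 ± 0.81 in I183P, 2.95 ± 1.60 in I183M and 4.85 ± 0.73 in control (SD, n = 3 each). The order from high to low was delta, control, I183M, I183P; delta and control overlapped, control and I183M overlapped through I183M replicate 1, and I183M and I183P overlapped. I183P differed from control by -2.08 (SE 0.79, interval -3.85 to -0.31), a 4.23-fold lower level, with an adjusted p of 0.563. Within slide 1, that is without I183P replicate 3, it differed by -2.55. I183M differed from control by -1.90 (SE 0.79, interval -3.67 to -0.13), a 3.73-fold lower level, with an adjusted p of 0.879. Without I183M replicate 1 this difference was -2.83, and without control replicate 1 it was -2.32.

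Nppb on the normexp and quantile scale was 5.48-fold lower in I183P (adjusted p = 0.489) and 4.86-fold lower in I183M (adjusted p = 0.818) than in control, and there no I183M array reached the control range. Delta minus control was 0.18 (interval -1.59 to 1.95) on the first scale and -0.27 (interval -1.90 to 1.36) on the second. With slide as a block, which rests on the single I183P array of slide 2, it was -1.22. Delta exceeded I183P by 2.26 (SE 0.79, 4.79-fold, adjusted p = 1.00), and with no overlap, but by 1.33 within slide 2, against the single I183P array there. Delta exceeded I183M by 2.08 (SE 0.79, 4.22-fold, adjusted p = 1.00), overlapping through I183M replicate 1, and by 0.68 with slide as a block. It exceeded I183M by 3.00 without I183M replicate 1. I183P minus I183M was -0.18 (interval -1.95 to 1.59) and became 0.74 without I183M replicate 1.

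Across the 12 arrays the levels of Nppa and Nppb had a Pearson correlation of 0.74 and a Spearman correlation of 0.74. It was 0.76 over the 11 arrays without control replicate 1, 0.77 on the normexp and quantile scale, and 0.57 on that scale without the 2 arrays farthest from the median of Nppa. These arrays share lines and slides, so the values are a description. I183M replicates 2 and 3 had the lowest values of both peptide genes. I183P replicates 1 and 2 had low Nppb (2.33 and 2.27) at Nppa levels of 5.80 and 5.24. Delta replicate 1 had the highest Nppa of all arrays, and delta replicate 3 had the highest Nppb.

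**Figure D2:**
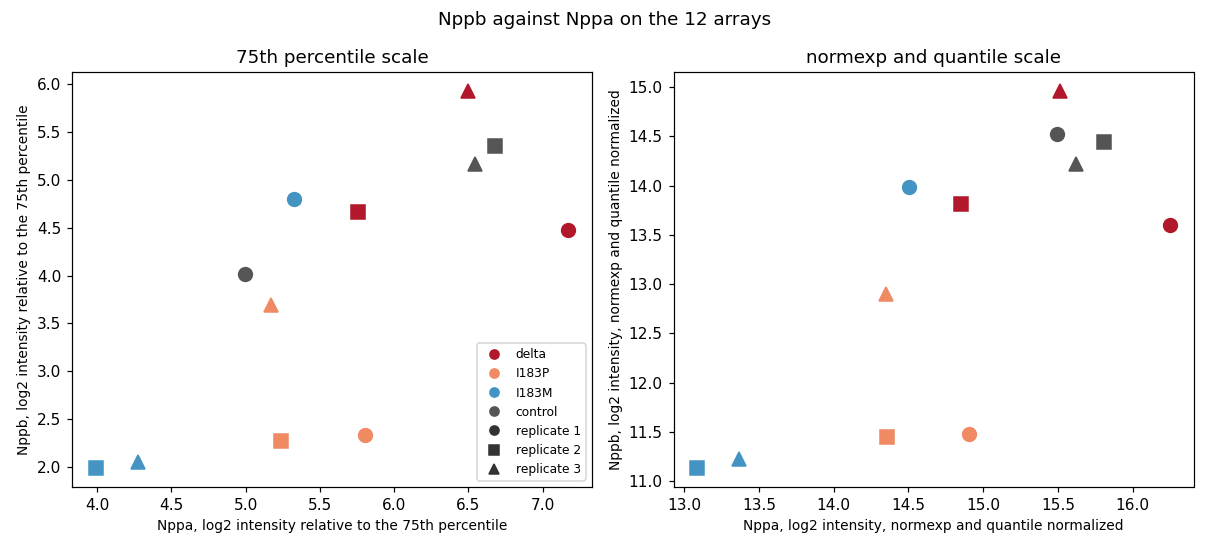
Level of Nppb (vertical) against level of Nppa (horizontal) on the 12 arrays, in log2 units, on the 75th percentile scale (left) and on the normexp and quantile scale (right). Colours stand for lines and symbols for replicates. I183M replicates 2 and 3 have the lowest values of both genes, and I183P replicates 1 and 2 combine low Nppb (2.33 and 2.27) with middle Nppa levels.

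Among 13043 named genes well above background on all 12 arrays, those whose levels were most like Nppb over the arrays were Tnfrsf12a (r = 0.89), Morn4 (0.87), Cpeb1 (0.86), Ttc39a (0.86) and Cdh4 (0.85). Tnfrsf12a encodes a receptor of the TNF family. Its correlation with Nppb was 0.91 over the 11 arrays without control replicate 1 and 0.91 on the normexp and quantile scale, while that of Morn4 was 0.43 on that scale. Those most like Nppa were Shisal1 (0.86), Gnb3 (0.83), Morn4 (0.83), Ckap4 (0.81) and Bend7 (0.79). The correlation with Nppa on the normexp and quantile scale was 0.74 for Gnb3 but 0.30 for Shisal1 and 0.09 for Bend7. All of these were picked from many genes as the most alike over the same 12 arrays.

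Nppc, the gene of C-type natriuretic peptide, a ligand made mainly outside heart muscle, was well above background only on control replicate 1, at a level of -3.77. On that array 99.1% of all spots were well above background. Its Nppc reading on the normexp and quantile scale, 6.17, was the lowest of the 12 arrays. On the other 11 arrays its measured value lay between -7.38 and -4.43, not well above background. It did not meet the detection filter of 3 arrays and was not tested, so 7 of the 8 genes were tested.

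Npr3, the gene of the clearance receptor, read higher in delta and in I183M than in control, by a small amount with little spread. Its level was 0.06, 0.01 and 0.32 on the delta arrays and -0.23, -0.27 and -0.42 on the I183P arrays. It was 0.16, 0.08 and -0.08 on the I183M arrays, against -0.18, -0.60 and -0.45 on the control arrays. All delta arrays and all I183M arrays lay above all control arrays, and all delta arrays lay above all I183P arrays.

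The mean Npr3 level was 0.13 ± 0.16 in delta, -0.31 ± 0.10 in I183P, 0.05 ± 0.12 in I183M and -0.41 ± 0.21 in control (SD, n = 3 each). The order from high to low was delta, I183M, I183P, control, with overlap between delta and I183M and between I183P and control. Delta minus control was 0.54 (SE 0.19, interval 0.11 to 0.96), a 1.45-fold higher level, with an adjusted p of 0.512. On the normexp and quantile scale it was 0.55 with an adjusted p of 0.119, and across the arrays left out in turn it lay between 0.44 and 0.65. I183M minus control was 0.46 (interval 0.04 to 0.89, adjusted p = 0.879), a 1.38-fold higher level. I183P minus control was 0.10 (interval -0.32 to 0.53), I183P minus I183M was -0.36 (interval -0.78 to 0.06), and delta minus I183P was 0.44 (interval 0.01 to 0.86). Npr3 was above control in each line on both scales, and its differences were smaller than those of Nppa and Nppb in I183M.

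Npr1, the guanylyl cyclase receptor for the Nppa and Nppb peptides, was near the detection limit. It was well above background on delta replicates 1 and 2 (-4.58 and -4.08) and on control replicates 1 and 2 (-2.31 and -3.73), and on no I183P or I183M array. Its mean reading on the 75th percentile scale differed from control by -1.10 in delta, -1.24 in I183P and -1.45 in I183M. In limma the adjusted p-values were 0.704, 0.563 and 0.879 in this order. On the normexp and quantile scale the differences were -0.14 in delta, -0.08 in I183P and -0.43 in I183M. Without control replicate 1 they were -0.43 in delta, -0.57 in I183P and -0.79 in I183M on the first scale. With quantile normalization of the processed intensity the I183P difference turned positive, at 0.0547. The size of the Npr1 difference thus went with the scaling and with control replicate 1, and its direction in I183P also changed with the scaling.

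Npr2, the guanylyl cyclase receptor for C-type natriuretic peptide, varied little outside control replicate 1. Its level was 3.23, 3.11 and 3.44 on the delta arrays, 3.24, 3.41 and 3.36 on the I183P arrays and 3.25, 3.32 and 3.38 on the I183M arrays, against 2.09, 3.22 and 3.41 on the control arrays. The other 11 arrays lay between 3.11 and 3.44. The differences from control were 0.35 (interval -0.34 to 1.05) for delta, 0.43 (interval -0.27 to 1.13) for I183P and 0.41 (interval -0.29 to 1.11) for I183M. On the normexp and quantile scale they were -0.10 (interval -0.31 to 0.11), 0.05 (interval -0.17 to 0.26) and 0.03 (interval -0.18 to 0.24).

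Corin, the membrane protease of heart muscle that cleaves the Nppa precursor, read 2.79, 2.79 and 3.36 on the delta arrays, 3.47, 3.35 and 2.76 on the I183P arrays and 2.96, 3.11 and 3.19 on the I183M arrays, against 1.98, 3.19 and 3.46 on the control arrays. All lines overlapped. The differences from control were 0.10, 0.31 and 0.20 for delta, I183P and I183M on the first scale and -0.28, -0.06 and -0.17 on the second. Their sign thus went with the scaling, and each was negative without control replicate 1 on the first scale too, at -0.35, -0.13 and -0.24.

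Furin, a proprotein convertase that can cleave the Nppb precursor among many others, read 3.40, 3.39 and 3.61 on the delta arrays, 3.51, 3.26 and 3.16 on the I183P arrays and 3.28, 3.15 and 3.18 on the I183M arrays. On the control arrays it read 2.30, 3.20 and 3.26. All delta arrays lay above all I183M arrays and above all control arrays. Delta minus control was 0.54 (interval -0.05 to 1.13, adjusted p = 0.704) on the first scale, where the low control replicate 1 enters, and 0.10 (interval -0.18 to 0.37) on the second. Delta minus I183M was 0.26 (interval -0.33 to 0.85) and 0.17 on the 2 scales.

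**Figure D3:**
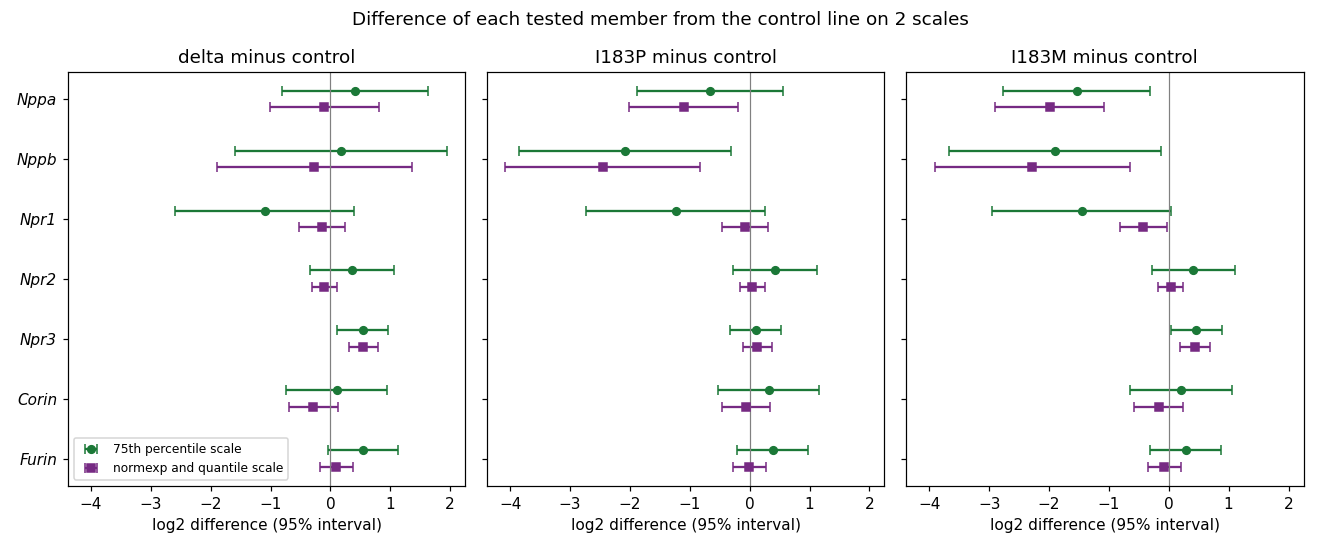
Difference of each tested gene from control, in log2 units with its 95% interval, for delta (left), I183P (middle) and I183M (right). Circles are values on the 75th percentile scale and squares on the normexp and quantile scale. The I183M values of Nppa (-1.54 and -1.99) and Nppb (-1.90 and -2.28) and the delta values of Npr3 (0.54 and 0.55) lie on the same side of 0 on both scales, whereas those of Corin change side.

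Counted over the 7 tested genes, none passed limma's threshold in any of the 6 comparisons between lines or in the test of any difference among the 4 lines, on either scale. Of all 29795 features tested, 22 passed in delta against control (0.0738%), 1 in I183P against control (0.00336%), none (0%) in I183M against control and none (0%) in the direct comparisons of the mutant lines on the 75th percentile scale. In the test of any difference, 2 features passed (0.00671%). The shares on the normexp and quantile scale were 0.0906% in delta, 0.0101% in I183P and 0.00671% in I183M against control, 0.0168% in delta against I183P, 0.0168% in delta against I183M, 0% in I183P against I183M and 0.0302% for any difference. At an unadjusted p under 0.05, 3 of the 7 genes (Nppa, Nppb and Npr3) were below the threshold in I183M against control, where 1.46% of all features were. The count was 1 (Nppb) in I183P against control, beside 5.18% of features, and 1 (Npr3) in delta against control, beside 7.35%. It was 2 in delta against I183M (Nppa and Nppb, 3.51% of features), 2 in delta against I183P (Nppb and Npr3, 2.78%) and 0 in I183P against I183M (1.28%). In the test of any difference the unadjusted p was under 0.05 for 3 of the 7 genes (Nppa 0.0255, Nppb 0.029 and Npr3 0.0457), beside 3.94% of features.

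On the 75th percentile scale 1 of the 7 genes did not overlap between I183M and control (Npr3, beside 3.73% of all features), 1 between I183P and control (Nppb, 12.8%) and 2 between delta and control (Npr3 and Furin, 13.6%). On the normexp and quantile scale the count for I183M was 4 (Nppa, Nppb, Npr3 and Corin, beside 6.68%), for I183P it was 3 (Nppa, Nppb and Npr3, 17.9%) and for delta 1 (Npr3, 15.2%). Between the mutant lines on the first scale, 2 genes did not overlap in delta against I183M (Nppa and Furin, 17.3% of features), 2 in delta against I183P (Nppb and Npr3, 19.4%) and 1 in I183P against I183M (Npr3, 24.4%). For the same 3 comparisons the counts were 2, 2 and 2 on the second scale, where 20.3%, 20.0% and 22.8% of features did not overlap. The median difference from control over the 7 genes was 0.35 in delta, 0.10 in I183P and 0.20 in I183M on the first scale, beside 0.04, -0.03 and 0.11 over all features. On the second scale this median had the opposite sign, at -0.10 in delta, -0.06 in I183P and -0.17 in I183M, beside 0.02, 0.05 and 0.02 over all features.

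Calls of Nppa, Nppb and Npr3 depended on whether the arrays were weighted. When limma estimated a weight for each array, control replicate 1 received 0.026, against 0.444 to 3.74 for the other 11 arrays. With these weights Nppa fell by 2.38 and Nppb fell by 3.08 in I183M against control (adjusted p = 0.011 and 0.0233), and Npr3 rose by 0.54 (adjusted p = 0.0345), where 1.39% of all features passed. In I183P against control Nppa fell by 1.24 and Nppb fell by 2.80 (adjusted p = 0.0385 and 0.0208), where 3.68% passed. In delta against control Npr3 rose by 0.73 (adjusted p = 0.0268), where 2.88% passed, and in delta against I183M Nppa was higher by 2.30 (adjusted p = 0.0377), where 0.242% passed. None of the 7 genes passed in delta against I183P (0.0336% of features) or in I183P against I183M (0.537%), and 3 passed in the test of any difference (3.29%). With control replicate 1 removed outright and equal weights for the other arrays, none of the 7 genes passed. The shares of all features were then 0.171%, 0.0168% and 0% for delta, I183P and I183M against control, 0.0235%, 0.0436% and 0% between the mutant lines and 0.0503% for any difference.

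Downstream of the receptors, cyclic GMP is bound by kinases and degraded by phosphodiesterases. Of 13 genes of cyclic GMP effectors and phosphodiesterases, all tested, 1 passed in delta against control and none in I183P or I183M against control. Pde5a, the cyclic GMP phosphodiesterase that sildenafil inhibits, was at -0.29, 0.03 and -0.18 on the delta arrays and between 2.16 and 3.57 on the I183P and I183M arrays, against 2.91, 3.97 and 3.95 on the control arrays. It fell by 3.75 in delta (SE 0.38, adjusted p = 0.0125), and all delta arrays lay below all others. All delta arrays were on slide 2 and all control arrays on slide 1, and with slide as a block the Pde5a difference was -2.81 with an adjusted p of 1.00. The call was also lost in a fit of the delta and control arrays alone (adjusted p = 0.674) and when control replicate 2 or 3 or any 1 delta array was left out (-3.57, -3.58, -3.68, -3.84 and -3.73, adjusted p from 0.0576 to 0.101). On the normexp and quantile scale, without a slide term, 1 gene of the list passed in delta against control (limma, smallest adjusted p = 0.000805). Pde5a read 9.24, 9.44 and 9.34 on the delta arrays there, against 13.27, 13.20 and 13.17 on the control arrays. Pde5a differed from control on the first scale by -0.82 in I183P (interval -1.66 to 0.03) and by -0.52 in I183M (interval -1.36 to 0.33).

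Pde3b, a phosphodiesterase that cyclic GMP inhibits, was at 1.59, 1.52 and 1.03 on the delta arrays, 1.39, 1.24 and 1.15 on the I183P arrays and 1.19, 1.67 and 1.49 on the I183M arrays. On the control arrays it was at -1.23, 0.03 and 0.14. All mutant arrays lay above all control arrays. The differences were 1.73, 1.61 and 1.80 for delta, I183P and I183M, with adjusted p-values of 0.223, 0.557 and 0.879. These 3 comparisons share the same control arrays. Over the list the median difference from control was 0.00 in delta, 0.11 in I183P and 0.24 in I183M, beside 0.04, -0.03 and 0.11 over all features. On the second scale it was -0.01, 0.09 and 0.04, beside 0.02, 0.05 and 0.02.

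None of the 6 genes of other guanylyl cyclases and their ligands passed in any of the 3 comparisons with control. Gucy1a1, a subunit of the soluble guanylyl cyclase that nitric oxide activates, was at 1.91, 1.59 and 2.00 on the delta arrays, 1.63, 1.61 and 1.78 on the I183P arrays and 1.53, 1.71 and 1.74 on the I183M arrays, against 0.41, 1.15 and 1.49 on the control arrays. Its differences were 0.82, 0.66 and 0.65 with adjusted p-values of 0.468, 0.563 and 0.879. The other subunit gene, Gucy1b1, differed by 0.77, 0.78 and 0.61. Without control replicate 1 the differences in delta, I183P and I183M were 0.51, 0.36 and 0.34 for Gucy1a1 and 0.37, 0.38 and 0.21 for Gucy1b1. Of 9 genes of other processing and clearance enzymes none passed. Mme encodes neprilysin, a protease that degrades natriuretic peptides. It differed from control by -0.56, -0.63 and -0.19 on the first scale but by -0.08, 0.01 and 0.06 on the second. The second-scale differences lean on control replicate 1, where Mme read 6.54 beside 8.05 and 8.04 on control replicates 2 and 3. Every mutant array lay below control replicates 2 and 3 on both scales.

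Of 18 genes of transcription factors of the Nppa and Nppb promoters 16 were tested, and none passed in a comparison with control on the 75th percentile scale. On the normexp and quantile scale Nkx2-5 passed in delta, and no other gene of this list did. Tbx5, a T-box activator of Nppa, was 0.88 above control in I183P (adjusted p = 0.563), 0.10 in delta and 0.53 in I183M on the first scale. On the second scale Tbx5 differed by 0.51 in I183P, -0.22 in delta and 0.15 in I183M, so the sign in delta changed. Jarid2, a repressor of Nppa in the mouse embryo, was 0.90 above control in I183P (adjusted p = 0.563), 0.14 in delta and 0.54 in I183M. Without control replicate 1 the Jarid2 differences were 0.65 in I183P, -0.11 in delta and 0.29 in I183M. Of 9 genes near Nppa and Nppb on the chromosome none passed. Plod1, which lies on the Nppb side with 1 other protein-coding gene between, did not overlap with control in any mutant line on the first scale, with differences of -0.49 in delta, -0.57 in I183P and -0.31 in I183M (adjusted p = 0.547, 0.563 and 0.879). On the second scale Plod1 overlapped with control in I183M, through I183M replicate 1, and in neither other line.

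Of 10 further fetal and stress genes of heart muscle none passed in a comparison with control. Myh7, the fetal myosin heavy chain of the mouse ventricle, was at 6.30, 6.38 and 8.22 on the delta arrays, against 3.30, 4.65 and 5.70 on the control arrays. Its difference was 2.42 in delta (SE 0.69, adjusted p = 0.384), 1.20 in I183P and 0.87 in I183M. Without control replicate 1 the Myh7 differences were 1.79 in delta, 0.57 in I183P and 0.24 in I183M, and on the second scale they were 1.95, 0.80 and 0.44. Delta replicate 3, which had the highest Nppb, had the highest Myh7 of the 12 arrays. Gdf15, a stress-induced cytokine, was at 1.28 on I183M replicate 1 but at -1.34 and -1.98 on I183M replicates 2 and 3. The same array, which had more spots above background than the other I183M arrays, stood apart from its line for Nppb, with 4.80 against 1.99 and 2.05, and for Tnfrsf12a, with 5.47 against 3.12 and 3.17. In this tissue RNA, fewer cells of a type and less RNA per cell cannot be told apart.

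The mean of markers of atrial muscle, where Nppa is most abundant, differed widely between arrays within delta, I183P and control and less within I183M. All 10 genes of the list were tested, and 9 were well above background on all 12 arrays. The exception was Bmp10, an atrial growth factor, on 3 arrays. The mean of the list, relative to its mean over all arrays on the normexp and quantile scale, ranged from -0.38 to 1.07 in delta, from -1.11 to 0.63 in I183P and from -0.08 to 0.35 in I183M, against -1.05 to 0.43 in control. Myl7, the atrial myosin light chain, read 13.13, 9.24 and 10.98 on the delta arrays, 11.80, 11.73 and 6.63 on the I183P arrays and 11.22, 9.77 and 10.42 on the I183M arrays, against 9.46, 6.95 and 11.45 on the control arrays. Sln, an inhibitor of the calcium pump found in atrial muscle, spanned 7.35 to 14.60 over the 12 arrays. Myl4 and Dkk3 varied in a similar way. Both were highest on delta replicate 1 (15.93 and 11.20). They were low on control replicate 2 (10.80 and 8.60) and on I183P replicate 3 (10.43 and 9.08). Some other genes of the list did not share this pattern. Pam spanned only 11.29 to 11.84, and Stard10 (10.36) and Kcna5 (10.24) were highest on control replicate 2, where Myl7 and Sln were low.

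Delta replicate 1 had the highest Myl7, the highest Sln and the highest Nppa of the 12 arrays. Within delta, I183P and I183M the arrays had the same order for Nppa as for Myl7, and within control they did not. In I183P this rests on nearly equal Nppa values of 14.354 and 14.350 on replicates 2 and 3. In the authors' values these were 14.364 and 14.369, the reverse order. On control replicate 2, Myl7 was at 6.95 and Sln at 7.35, while Nppa was at 15.81, above all I183P and I183M arrays. On I183P replicates 1 and 2, Myl7 was at 11.80 and 11.73 while Nppa was at 14.91 and 14.35, below all control arrays. The correlation of the list's mean with Nppa over the 12 arrays was 0.09 on this scale and 0.22 on the 75th percentile scale, and with Nppb it was -0.21 and -0.05. The part of atrial muscle in the Nppa values was not tested further. The 4 genes of ventricular muscle markers (Myl2, Myl3, Irx4 and Hey2) were well above background on all arrays. Relative to its overall mean, their list mean lay between -0.53 and 0.26 on the 75th percentile scale, with the lowest value on control replicate 1. On the normexp and quantile scale it lay between -0.08 and 0.10. Quantile normalization gives the brightest probes, here Myl2 and Myl3, nearly equal values on each array by construction.

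**Figure D4:**
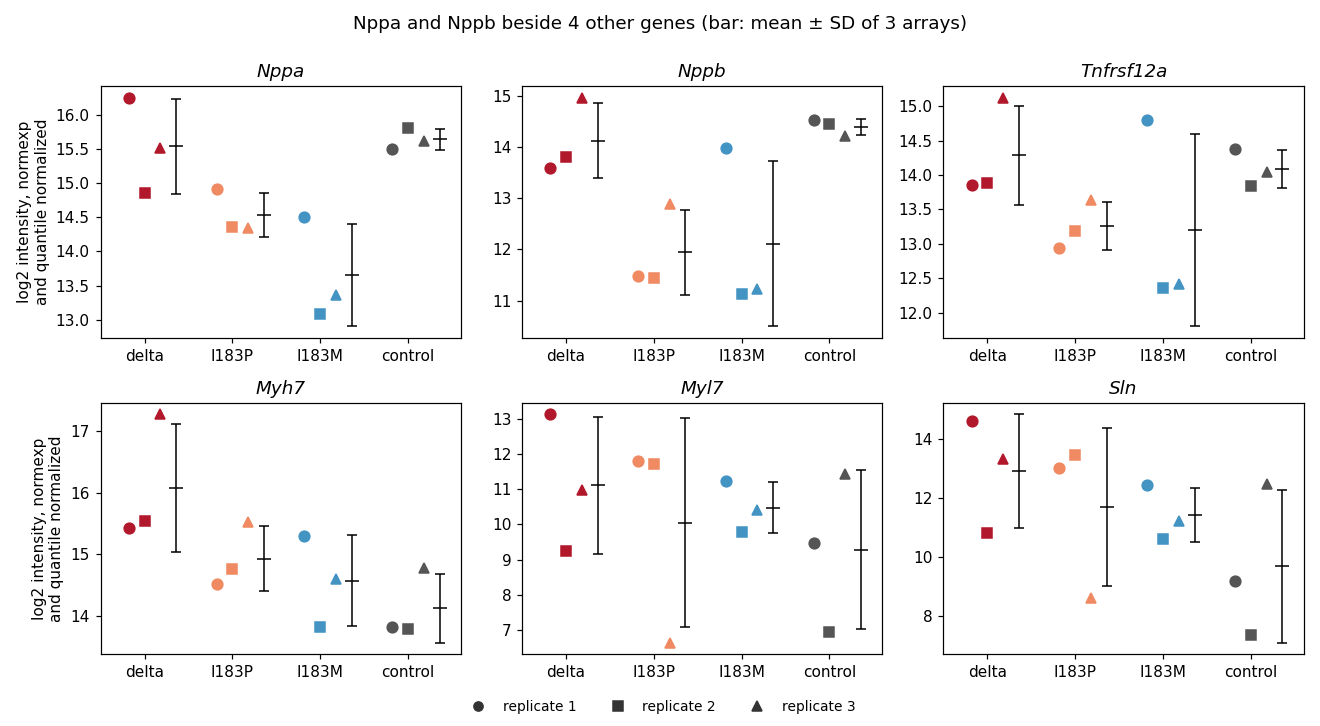
Level of Nppa, Nppb, Tnfrsf12a, Myh7, Myl7 and Sln on each array, in log2 units on the normexp and quantile scale (vertical axes differ between panels), by line. Symbols stand for replicates and bars for mean ± SD of 3 arrays. Tnfrsf12a was picked as the gene most like Nppb over these arrays. I183M replicate 1 is above its line for Nppb and Tnfrsf12a, and Myl7 spans 6.63 to 11.80 within I183P.

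Markers of other cells of the heart showed no call either. None of 8 endothelial and endocardial, 6 fibroblast, 6 smooth muscle and pericyte, 7 conduction system and 4 general heart muscle markers passed in a comparison with control on the 75th percentile scale. On the normexp and quantile scale the mean of the endothelial and endocardial list (Npr3 is known as a gene of the mouse endocardium) was between -0.05 and 0.10 in delta, 0.09 and 0.19 in I183P and -0.04 and 0.05 in I183M, against -0.24 and -0.09 in control. This order differs from that of Npr3, which was lower on every I183P array than on any delta or I183M array. The part of these cells in the Npr3 values was not tested.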

How the data were processed

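Per the file headers, the image software was Agilent Feature Extraction 11.0.1.1. The files deposited by the authors hold intensity values per spot: a processed intensity already corrected for background within the array, and the median and local background intensity. Per the file headers, none was normalized between arrays. A table deposited by the authors holds log2 values of the same arrays, whose exact steps are not given in the sources used here, and it served as an alternative. The submitters' processing notes name Feature Extraction and limma.

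Levels are log2 processed intensity relative to each array's 75th percentile, outlier and control spots were left out, and spots of a probe were averaged. Accessions were matched to a RefSeq gene table (GRCm38.p6), which gave 1 symbol to 27235 of 55681 probes. A feature was tested where well above background on at least 3 of 12 arrays, read from its probe with the highest mean (29795 features). Differences were fitted with limma 3.58.1 in R 4.3.3 over all 12 arrays (lmFit and eBayes), with Benjamini-Hochberg adjusted p under 0.05 as threshold; every adjusted p comes from it. The second scale used normexp (offset 50) and quantile normalization. The number of arrays limits the precision.

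The 8 genes and the 13 lists were chosen with earlier results of these data known. Of each list up to 4 genes were named by smallest p in a comparison with control, and for Nppa and Nppb the 5 genes with the highest correlation. Myl7, Myl4, Bmp10, Dkk3 and Kcna5 were named after their values were seen. Alternatives covered background correction, normalization, the deposited log2 table, the filter on dim probes, separate probes, array weights, slide, replicate numbers and each array left out. Correlations of deviations from line means exceeded 0.1 for all 3 same-numbered pairs of I183M and control arrays (0.50 to 0.79), so the numbers were treated as pairs there in an added fit. For the other 5 line pairs they ran from -0.81 to 0.32, with 3 of 15 over 0.1, and the numbers were not taken as pairs. Over all lines 6 of 18 same-numbered pairs exceeded 0.1, up to 0.79. Among pairs with different numbers 15 of 36 did, up to 0.87. These correlations therefore cannot show whether same-numbered samples were paired. The fit was tested on simulated data.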

Additional observations from a re-analysis of the deposited data

How the results depend on the processing

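No tested gene passed in any comparison under any alternative other than array weights. With array weights 3 of the 7 genes passed in I183M against control, 2 in I183P against control, 1 in delta against control, 1 in delta against I183M and 3 in the test of any difference. Nppa and Nppb kept their sign in I183P and in I183M against control, and Npr3 kept its sign in all 3 lines against control, under every alternative run (24 to 26 per comparison). With the replicate block 0 genes passed in each comparison, and the adjusted p of Nppa in I183M against control was 0.913. It was 0.974 with the block in a fit of the I183M and control arrays alone, chosen after seeing the data, where 0 genes passed. The block thus changed no call of the 7 genes.

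Some signs turned. For delta against control, under quantile normalization, normexp and quantile, the authors' values and array weights in this order, Nppa was -0.10, -0.10, -0.10 and -0.0791, Nppb was -0.31, -0.27, -0.28 and -0.0287, and Corin was -0.31, -0.28, -0.30 and -0.19. Nppb was -1.22 there with slide as a block. In the same order, Corin was -0.18, -0.17, -0.18 and -0.13 and Furin was -0.11, -0.0751, -0.0775 and -0.0396 in I183M against control. Under the first 3 of these, Npr2 was -0.0702, -0.10 and -0.11 in delta against control, and in I183P against control Corin was -0.0652, -0.0637 and -0.0636 and Furin was -0.0129, -0.00668 and -0.0066. Npr1 was 0.0547 in I183P against control under quantile normalization, and Nppb was 0.27 in I183P against I183M with array weights.

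With normexp and quantile normalization and control replicate 1 left out together, an alternative chosen after seeing the data, Corin was -0.20 in I183M, -0.0937 in I183P and -0.31 in delta against control. Nppa was -0.18, Nppb -0.21 and Npr2 -0.0951 in delta against control. The cause was not tested. Leaving out 1 array at a time gave ranges of -0.35 to 0.39 (delta), -0.13 to 0.61 (I183P) and -0.24 to 0.50 (I183M) for Corin against control. The range was -0.0284 to 0.45 for Furin in I183M, -0.14 to 0.76 for Nppa in delta, -0.28 to 0.45 for Nppb in delta and -0.0525 to 0.61 for Npr2 in delta, all against control. It was -0.66 to 0.74 for Nppb in I183P against I183M and -0.0165 to 0.14 for Npr3 in delta against I183M. With 3 arrays per line the width of the printed intervals limits what could be detected, and Npr1 and Nppc were limited by their signal over background.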
